A study of Gallus gallus with 8 samples.

Results

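The lateral plate is the sheet of mesoderm beside the somites, whose front part gives the heart and whose other parts give the body wall, limb buds and gut wall. Left mesoderm, the lateral plate of the left side of the chick embryo, was compared with posterior mesoderm, its posterior part, both at Hamburger-Hamilton (HH) stage 8. These are 2 of the 8 libraries of the series, and all 17778 listed genes were compared between them. Each library was made from pooled chick tissue for which the labels give no treatment, genotype, sex or number of embryos, and each group has 1 library. The other stage 8 libraries, of the pacemaker progenitor field and of anterior mesoderm, are given beside them, and the 4 heart libraries only where stated. Polyadenylated RNA was read from both ends in 36-base reads. Neither how far along the body axis the left piece reached nor the side of the posterior piece is given in the labels. Side and position along the body therefore cannot be told apart in this comparison.

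Left and right of the vertebrate body are set apart early. Nodal, a secreted signal of the TGF-beta family, is made in the left lateral plate, where it turns on its own antagonists of the Lefty family and, in chick, the antagonist CER1, also called Caronte. Along the other axis, the posterior plate is patterned by Wnt and FGF signals from the tail end, by caudal (CDX) factors and by HOX genes, while the front of the plate turns on heart factors such as NKX2-5, GATA4 and TBX5.

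Levels are CPM, read counts brought to an equal library total, after scaling with TMM factors. A gene was called when log2((left CPM + 1)/(posterior CPM + 1)) reached 1 in either direction, 5 CPM or more was measured in one of the libraries, and 1 lay outside the 95% interval (Clopper-Pearson, exact) of its count ratio. Such an interval covers counting error only, because there is no replicate library, and no p-value can be given. The log2 scale with 1 CPM added understates the change of genes at low levels. Since RNA came from whole pieces of tissue, fewer cells of a type and less RNA per cell cannot be told apart.

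Of 9119 genes at 5 CPM or more in either library, 136 (1.49%) were called higher and 35 (0.384%) lower in left mesoderm, 171 (1.88%) in all. The rest lay close together. The median log2 ratio was -0.02, and 91.5% of expressed genes were within 1.5-fold. Most called differences were small: 92 of the 136 higher genes and 33 of the 35 lower genes lay between 2-fold and 3-fold, and 18 higher genes and 1 lower gene lay past 4-fold on the log2 scale. Just inside the limit stood FZD10 at a log2 ratio of -1.01, and just outside stood RDH10 at 0.97 and LUZP2 at -0.98. In the plot of ratio by level, CER1 and Q8QGA0 stand far from all other genes.

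**Figure D1:**
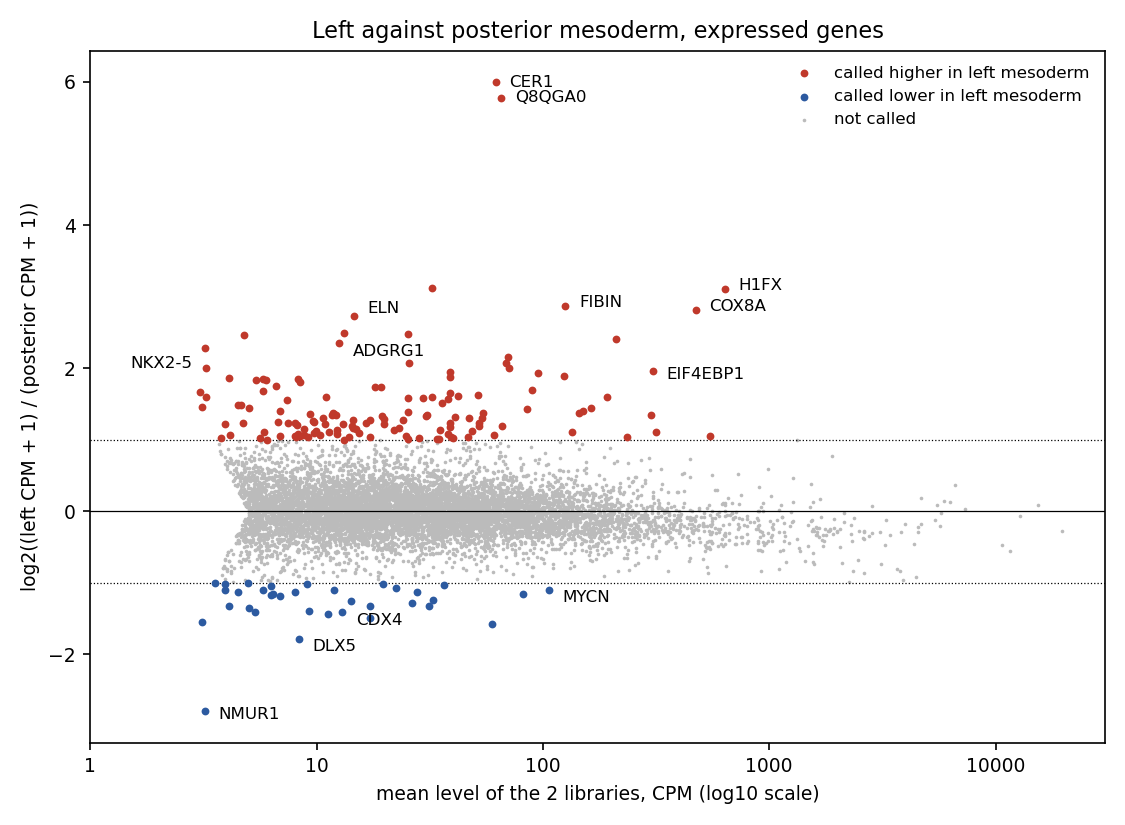
Each point is 1 of 9119 expressed genes, with the mean of the left and posterior level in CPM on a log axis and the log2 ratio of left over posterior mesoderm on the vertical axis. Red points are the 136 genes called higher and blue points the 35 called lower in left mesoderm, dotted lines mark a log2 ratio of 1 and -1, and CER1 at 5.996 and Q8QGA0 at 5.78 lie above all others.

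The widest difference was that of a gene of the left-right pathway. CER1, the secreted antagonist of Nodal and BMP signals, stood at 123 CPM in left mesoderm, 1.62 in the pacemaker field, 0.437 in anterior mesoderm and 0.944 in posterior mesoderm. That is 2127 counts in left against 11 in posterior mesoderm, a 130.4-fold ratio (72.7 to 261.7). Left mesoderm alone was high, and CER1 had 30 counts or fewer in each of the other 3 libraries. The floor of 3 counts lies at 0.174 CPM in left and 0.257 CPM in posterior mesoderm.

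The co-receptor, receptor and upstream signal genes of the pathway that were matched by name were not called. CFC1, the membrane co-receptor of Nodal, stood at 64.1 CPM in left mesoderm, 84.6 in the pacemaker field, 87.3 in anterior mesoderm and 82.7 in posterior mesoderm. ACVR2A and ACVR2B, activin receptors through which Nodal signals, had log2 ratios of 0.02 and -0.51. SHH, whose left-sided expression at the node lies upstream of Nodal in chick, had 41.4 CPM in left against 35.3 CPM in posterior mesoderm. It is also in the endoderm and notochord marker lists, and which tissue its reads came from was not tested. In all, 7 of 24 listed left-right genes were found and expressed, 2 of them called higher and 0 lower, with a median of 0.02. Of all expressed genes 1.49% were called higher. NODAL and the Lefty genes were not matched by name to a row and have no value under those names here.

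The second gene of this kind has no gene name in the sources used here. The row Q8QGA0, a protein accession on chromosome 22, stood at 129 CPM in left mesoderm, 0.919 in the pacemaker field, 0.262 in anterior mesoderm and 1.37 in posterior mesoderm, that is 2237 counts in left against 16 in posterior mesoderm and 94.3-fold (57.9 to 165.3). It follows CER1 in all 4 libraries, being high in left mesoderm only. It lies at 2293799 to 2294762 on the minus strand (the build is not given in the sources used here), next to EIF4EBP1 at 2285549 to 2289810 on the plus strand. RefSeq, on the GRCg7b assembly, lists ADRB3, EIF4EBP1, NODAL, ASH2L and STAR in this order. The rows here are ADRB1chr22-, EIF4EBP1, Q8QGA0, Q5ZIL1 and STAR. Order on another assembly does not identify the row, and whether Q8QGA0 is NODAL was not settled. EIF4EBP1, which binds the cap-binding factor eIF4E and holds back translation, stood at 487 CPM in left mesoderm, 213.8 in the pacemaker field, 200.5 in anterior mesoderm and 124 in posterior mesoderm, 3.91-fold (3.70 to 4.14). The next row, ADRB1chr22-, had 7.001 CPM in left against 1.20 CPM in posterior mesoderm, 5.83-fold (3.34 to 10.98). So 3 neighbouring rows were called higher here, whereas Q5ZIL1 and STAR on the far side of Q8QGA0 had log2 ratios of 0.02 and 0.47. No neighbour of CER1 among the 4 rows looked at on each side was called. The nearest to the limit was FREM1, an extracellular matrix protein beside CER1, with 13.7 CPM in left and 8.06 CPM in posterior mesoderm and a log2 ratio of 0.69. Whether reads were counted by strand is not given, so reads of overlapping or read-through transcripts of neighbours cannot be assigned to one of them.

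Of the 136 higher genes, 24 stood at least 2-fold higher in left mesoderm than in all 3 other stage 8 libraries on the same log2 scale, and 13 of them have a gene symbol, CER1 and EIF4EBP1 among them. ELN, elastin, the rubber-like protein of the extracellular matrix, had 26.2 CPM in left mesoderm, 2.27 in the pacemaker field, 2.36 in anterior mesoderm and 3.09 in posterior mesoderm, an 8.49-fold ratio (6.04 to 12.3). ADGRG1, an adhesion receptor coupled to G proteins, had 21.7 CPM in left mesoderm, 2.27 in the pacemaker field, 2.10 in anterior mesoderm and 3.43 in posterior mesoderm, 6.32-fold (4.56 to 8.995). Both had similar low levels in the other 3 libraries. FIBIN, a secreted protein known from zebrafish fin bud initiation, had 222 CPM in left mesoderm, 94.7 in the pacemaker field, 51.2 in anterior mesoderm and 29.6 in posterior mesoderm, 7.49-fold (6.70 to 8.38). Unlike ELN, FIBIN was graded over the 4 libraries, and its left level was 2.34-fold above that of the pacemaker field. TOX2, a nuclear protein with an HMG box, had 42.0 CPM in left against 9.18 CPM in posterior mesoderm, 4.57-fold. BTG2, which restrains cell division, had 28.4 CPM in left against 7.81 CPM in posterior mesoderm, 3.63-fold. CD3E, known as a chain of the T cell receptor complex, had 13.5 CPM in left mesoderm, 1.24 in the pacemaker field, 3.06 in anterior mesoderm and 3.003 in posterior mesoderm, 4.49-fold (3.14 to 6.60). It lies beside the row Q9PU42, also called higher. EPS8, TMEM63A, TAGLN3 and BORCS6 also belong to this group. TMEM63A, a membrane channel protein, had 7.29 CPM in left against 1.97 CPM in posterior mesoderm. The row next to it, Q9PUK3, an accession with no gene name here, had 7 counts in left mesoderm and 0 in each of the other 7 libraries, and its interval in this comparison included 1. RefSeq lists LEFTY1 beside TMEM63A, and whether Q9PUK3 is that gene was not settled either.

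**Figure D2:**
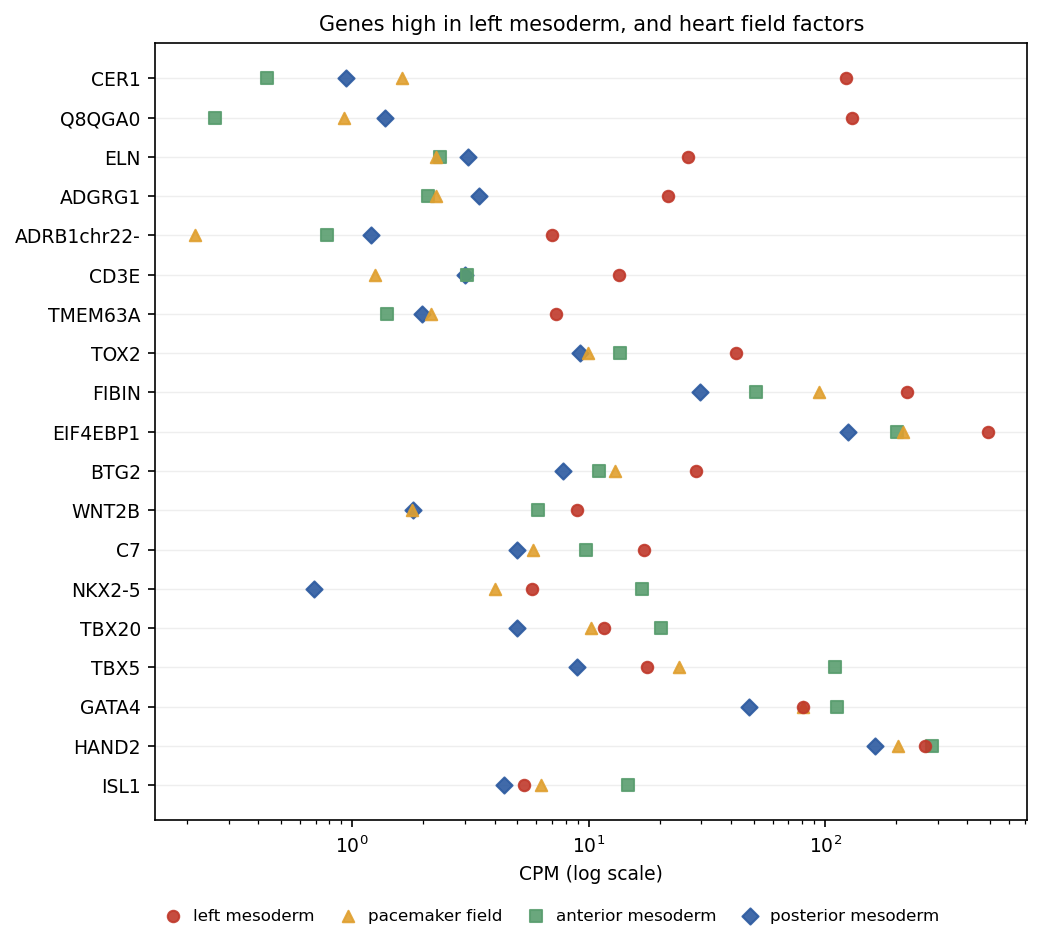
Each row is a gene and each symbol its level in 1 library, in CPM on a log axis, for left mesoderm, pacemaker field, anterior mesoderm and posterior mesoderm. From CER1 to C7 the left mesoderm is the highest library, with CER1 at 123 CPM against 0.944 CPM in posterior mesoderm, while from NKX2-5 to ISL1 the anterior mesoderm is the highest.

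Heart factors were mostly above the median of all genes, and 2 of 17 expressed ones were called. NKX2-5, the homeodomain factor of heart precursors, had 5.79 CPM in left mesoderm, 4.003 in the pacemaker field, 16.9 in anterior mesoderm and 0.686 in posterior mesoderm. This is 100 counts in left against 8 in posterior mesoderm, 8.43-fold (4.12 to 20.1). TBX20, a T-box factor of the heart, had 11.6 CPM in left mesoderm, 10.3 in the pacemaker field, 20.2 in anterior mesoderm and 4.98 in posterior mesoderm, 2.33-fold (1.73 to 3.17). Both were highest in anterior mesoderm and lowest in posterior mesoderm. TBX5, which patterns the heart and the forelimb, was also highest in anterior and lowest in posterior mesoderm, at 17.6 CPM in left mesoderm, 24.0 in the pacemaker field, 110.4 in anterior mesoderm and 8.92 in posterior mesoderm, and was not called at a log2 ratio of 0.91. MEF2C at 0.86, GATA4 at 0.74, HAND2 at 0.70 and ISL1 at 0.23 were not called either, nor was TCF21 at -0.53. In the list of heart field factors 2 of 17 expressed genes were called higher and 0 lower, against 1.49% higher and 0.384% lower over all expressed genes. The median log2 ratio was 0.41 in the list and -0.02 over all expressed genes. Of 10 expressed contractile genes, 1 was called higher. This was ACTA2, smooth muscle actin, with 79.2 CPM in left mesoderm, 43.9 in the pacemaker field, 89.0 in anterior mesoderm and 30.03 in posterior mesoderm, 2.64-fold.

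Other called genes of left mesoderm came from signalling and matrix lists. WNT2B, a Wnt ligand, had 8.97 CPM in left mesoderm, 1.79 in the pacemaker field, 6.12 in anterior mesoderm and 1.80 in posterior mesoderm, 4.98-fold (3.15 to 8.27). It was high in left and anterior mesoderm and low in the other libraries. HEYL, a repressor downstream of Notch, had 14.003 CPM in left against 5.92 CPM in posterior mesoderm, 2.37-fold. TNC, tenascin-C of the extracellular matrix, had 9.95 CPM in left mesoderm, 4.38 in the pacemaker field, 9.61 in anterior mesoderm and 3.60 in posterior mesoderm, 2.76-fold. ELN and TNC were 2 of 27 expressed matrix genes called higher, against 1.49% of all expressed genes, with 0 lower and a median of 0.22. MYF5, a muscle determination factor, had 5.90 CPM in left against 1.97 CPM in posterior mesoderm, 2.99-fold (1.89 to 4.93). C7, a terminal complement component, was 3.43-fold higher, at 17.1 CPM in left against 4.98 CPM in posterior mesoderm. VWDE, a protein with von Willebrand factor D and EGF domains, was 4.30-fold higher. VWDE differed from the others in that posterior mesoderm was the low library, at 2.49 CPM, while left mesoderm had 10.7, the pacemaker field 7.63 and anterior mesoderm 9.35.

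In the other direction, genes of the tail end and of ectoderm borders were among those lower in left mesoderm. CDX4, a caudal homeodomain factor, had 6.65 CPM in left mesoderm, 6.11 in the pacemaker field, 4.28 in anterior mesoderm and 19.3 in posterior mesoderm, 2.90-fold lower in left (2.31 to 3.66). The neighbouring row HMD2, not matched to a gene name, had 19.04 CPM in left mesoderm, 19.09 in the pacemaker field, 15.9 in anterior mesoderm and 46.2 in posterior mesoderm, 2.42-fold lower in left. Between VEGFRKDRL and EPFIP1L the rows are CDX4, HMD2 and Q5ZIX4, where RefSeq lists HOXCDX1L, CDX4 and CHIC1. The row CDX4 was matched by its symbol. Order on another assembly does not identify a row, and whether CDX4 or HMD2 is the RefSeq CDX4 was not settled. WNT8A, a Wnt ligand of the primitive streak, had 7.99 CPM in left mesoderm, 4.49 in the pacemaker field, 3.67 in anterior mesoderm and 20.5 in posterior mesoderm, 2.57-fold lower in left (2.07 to 3.19). For these rows posterior mesoderm stood at least 2-fold above each of the other 3 libraries on the log2 scale. In WNT8A those others also differed, left mesoderm being 2.18-fold above anterior mesoderm. FZD10, a Wnt receptor, had 12.7 CPM in left mesoderm, 14.8 in the pacemaker field, 17.7 in anterior mesoderm and 26.6 in posterior mesoderm, 2.10-fold lower in left. It was no longer called with total counts or with TMM factors over the 4 mesoderm libraries.

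Of 12 expressed caudal and primitive streak genes, 0 were called higher and 2 lower in left mesoderm, with a median log2 ratio of -0.62. Over all expressed genes 1.49% were called higher and 0.384% lower. CDX1 had 19.1 CPM in left and 35.1 CPM in posterior mesoderm, with a log2 ratio of -0.84. TBX6, which specifies paraxial mesoderm, had 6.31 CPM in left and 13.0 CPM in posterior mesoderm, with -0.93. TBXT, the factor of the streak and notochord, had 7.64 CPM in left and 8.58 CPM in posterior mesoderm, with an interval of the ratio that included 1. RSPO3, a secreted enhancer of Wnt signalling, was also short of the limit, at 25.3 CPM in left and 46.5 CPM in posterior mesoderm and a log2 ratio of -0.85. Across the 24 expressed Wnt genes 1 was called higher and 2 lower, with a median of 0.01, near that of all genes.

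DLX5, a homeobox gene of ectoderm borders and limb buds, had 3.18 CPM in left mesoderm, 7.14 in the pacemaker field, 5.94 in anterior mesoderm and 13.5 in posterior mesoderm, 4.23-fold lower in left (3.09 to 5.86). MSX2, a homeobox gene that responds to BMP, had 17.1 CPM in left mesoderm, 26.1 in the pacemaker field, 23.2 in anterior mesoderm and 38.5 in posterior mesoderm, 2.25-fold lower in left. Left mesoderm was the lowest and posterior mesoderm the highest library for both. BMP4, a BMP ligand, was not called at 13.3 CPM in left and 24.965 CPM in posterior mesoderm, with a log2 ratio of -0.87. DLX5 and MSX2 are also markers of ectoderm, and the summed level of the 15 neural and ectoderm markers found was 207 CPM in left mesoderm, 228 in the pacemaker field, 240.5 in anterior mesoderm and 242 in posterior mesoderm. DLX5 and MSX2 are themselves part of that sum, so it gives no separate measure of ectoderm. Of the 8 expressed markers in that list, 2 had a log2 ratio above 0 and 6 below, with a median of -0.14. The 2 called were DLX5 and MSX2, both lower, against 0.384% of all expressed genes called lower. GRHL3 of surface ectoderm, under 5 CPM in both libraries, had 1.04 CPM in left and 3.26 CPM in posterior mesoderm, and SOX10 was at 0 in posterior mesoderm. The part of ectoderm in the DLX5 and MSX2 values was not tested.

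**Figure D3:**
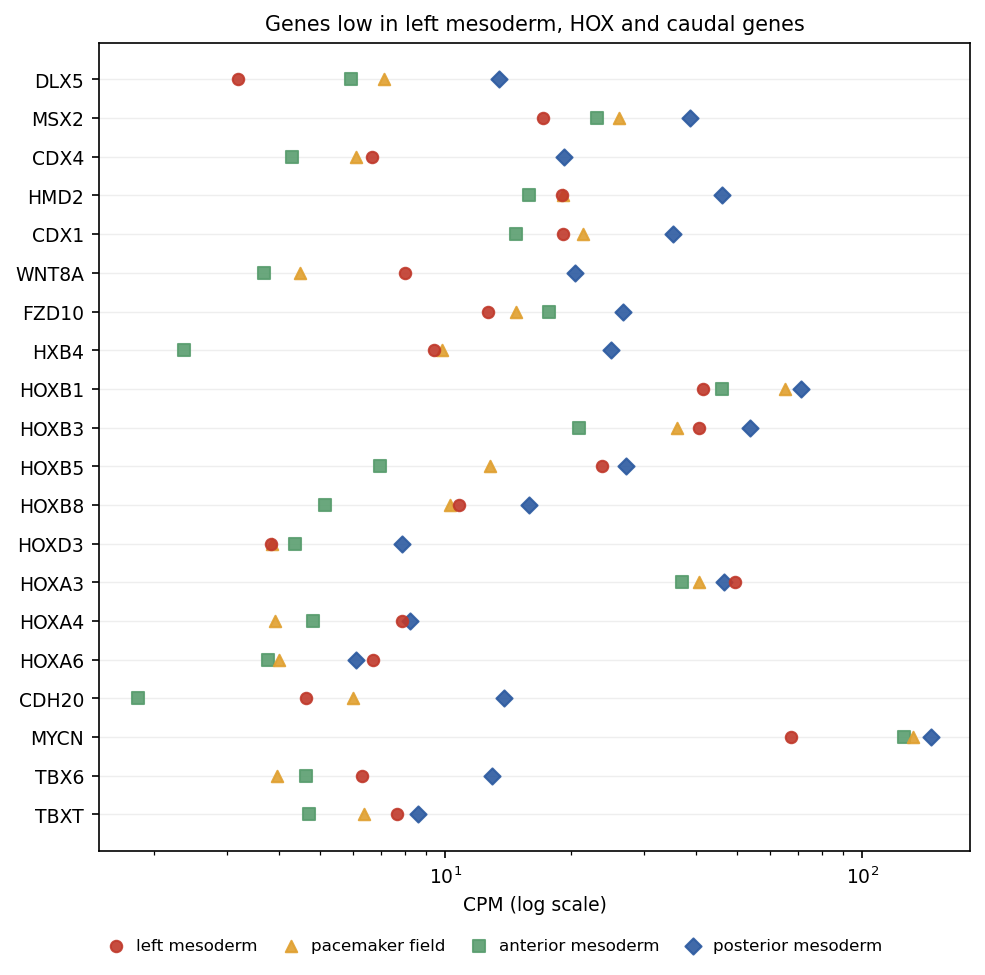
Each row is a gene and each symbol its level in 1 library, in CPM on a log axis, for left mesoderm, pacemaker field, anterior mesoderm and posterior mesoderm. Posterior mesoderm is the highest library for CDX4 at 19.3 CPM, WNT8A at 20.5 CPM and HXB4 at 24.97 CPM, while HOXA3 and HOXA6 are highest in left mesoderm.

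HOX genes, which mark position along the body, stayed within the limit between left and posterior mesoderm. Of 25 HOX genes found by name, 8 were expressed and 0 were called, with a median log2 ratio of -0.29. With 1.88% of all expressed genes called, 0 of 8 does not set the HOX genes apart. HOXA3 had 49.4 CPM in left mesoderm, 40.5 in the pacemaker field, 37.0 in anterior mesoderm and 46.6 in posterior mesoderm. HOXA6 had 6.71 CPM in left mesoderm, 4.003 in the pacemaker field, 3.76 in anterior mesoderm and 6.09 in posterior mesoderm. Left and posterior mesoderm were the high libraries for both. HOXB5 was alike, with 23.7 CPM in left mesoderm, 12.8 in the pacemaker field, 6.99 in anterior mesoderm and 27.1 in posterior mesoderm. The interval of the ratio included 1 for each of these genes and for HOXA4. HOXB1 had 41.4 CPM in left mesoderm, 65.3 in the pacemaker field, 46.1 in anterior mesoderm and 71.2 in posterior mesoderm, 1.72-fold lower in left (1.55 to 1.90). HOXD3 had 3.82 CPM in left and 7.89 CPM in posterior mesoderm, with a log2 ratio of -0.88 that passed the limit with 0.25 CPM added in place of 1. HOXB3 had a log2 ratio of -0.40 and HOXB8 of -0.52. HOXA9 had 5 counts in left and 2 in posterior mesoderm, and HOXA10, HOXA11 and HOXB13 had 0 in both. The row HXB4 on unplaced sequence, which could not be checked by its neighbours, was called lower in left at 9.37 CPM in left mesoderm, 9.79 in the pacemaker field, 2.36 in anterior mesoderm and 24.97 in posterior mesoderm, 2.66-fold.

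Further genes lower in left mesoderm had varied roles. CDH20, a cadherin, had 4.63 CPM in left mesoderm, 6.004 in the pacemaker field, 1.83 in anterior mesoderm and 13.8 in posterior mesoderm, 2.98-fold lower in left (2.27 to 3.95). GFRA2, the receptor part that binds neurturin, had 8.56 CPM in left and 26.0 CPM in posterior mesoderm, 3.04-fold lower in left (2.49 to 3.72). GLB1L, a relative of beta-galactosidase, was 3.03-fold lower, at 5.55 CPM in left and 16.8 CPM in posterior mesoderm. UPK3B, a uroplakin of mesothelium, had 2.37 CPM in left and 7.64 CPM in posterior mesoderm, 3.22-fold lower in left (2.20 to 4.78). It was the 1 of 8 expressed lateral plate and coelom genes that was called. Over all expressed genes 0.384% were called lower. SMOC1, a secreted modulator of BMP signals, was 2.43-fold lower in left, the metallothionein MT3 2.26-fold, the galectin LGALS2 2.18-fold, PHLDA2 2.08-fold and C12orf73 2.54-fold. MYCN, the MYC-family factor of growing progenitors, had 67.4 CPM in left mesoderm, 132 in the pacemaker field, 126 in anterior mesoderm and 146 in posterior mesoderm, 2.16-fold lower in left (2.01 to 2.33). Here left mesoderm was the lowest library, though less than 2-fold below the next, and the other 3 libraries lay close together. MYCN was the 1 of 15 expressed proliferation genes that was called, against the same share of 0.384% over all expressed genes. Together with LGALS2 and PHLDA2 it was no longer called with total counts. NMUR1, a receptor of neuromedin U, had the lowest log2 ratio of all, -2.80. It rested on 1 count in left mesoderm, 5 in the pacemaker field, 2 in anterior mesoderm and 74 in posterior mesoderm.

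Several lists held no called gene. Only 1.88% of all expressed genes were called, so 0 called in lists this short does not set them apart. In the retinoic acid list 0 of 12 expressed genes were called, with a median of 0.04. ALDH1A2, the main enzyme that makes retinoic acid in the trunk, had 512 CPM in left mesoderm, 394 in the pacemaker field, 280.0 in anterior mesoderm and 522 in posterior mesoderm, with a ratio of 0.982 (0.9501 to 1.01). Left and posterior mesoderm thus matched within counting error for ALDH1A2, and both exceeded anterior mesoderm. RDH10, which makes the precursor of retinoic acid, differed from it in that posterior mesoderm was the low library, with 38.9 CPM in left mesoderm, 38.5 in the pacemaker field, 40.7 in anterior mesoderm and 19.4 in posterior mesoderm. CYP26A1, which breaks retinoic acid down, had 30.2 CPM in left and 19.7 CPM in posterior mesoderm, 1.53-fold (1.31 to 1.80). None of 9 expressed FGF and ERK genes, 22 guidance and adhesion genes or 14 immediate early and stress genes was called. Over all 23 lists, 10 of 241 expressed genes were called higher and 7 lower, with a median of 0.05. The shares over all expressed genes were 1.49% higher and 0.384% lower, and the lists were chosen with earlier results of these data known.

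**Figure D4:**
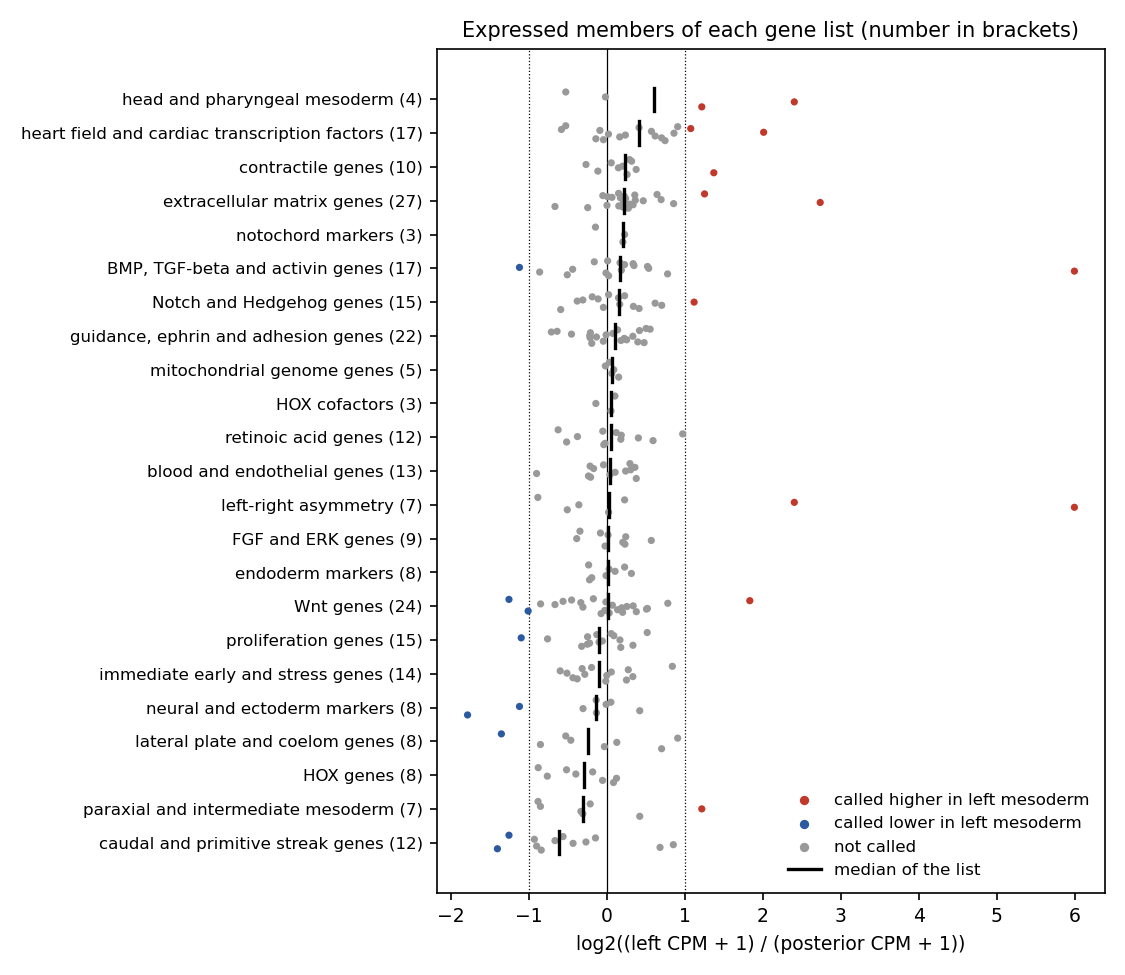
Each point is an expressed member of a gene list, placed by its log2 ratio of left over posterior mesoderm, with red for genes called higher, blue for genes called lower and grey for those not called. Black bars are list medians, from 0.60 for the 4 head and pharyngeal genes and 0.41 for heart field factors down to -0.62 for caudal and primitive streak genes. Of the 4 head and pharyngeal genes, 2 lay above 0 and 2 below, so their median rests on few genes.

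Marker genes of other tissues were checked in both libraries. Lateral plate markers were present in each: HAND2 had 264 CPM in left and 162 CPM in posterior mesoderm, and PRRX1 52.6 CPM in left and 73.0 CPM in posterior mesoderm. Endoderm markers summed to 1221 CPM in left mesoderm, 1105 in the pacemaker field, 1206 in anterior mesoderm and 1325 in posterior mesoderm, with 0 of 8 expressed markers called. EPCAM, an epithelial adhesion protein, had 80.0 CPM in left and 80.7 CPM in posterior mesoderm. Epithelial transcripts were thus present in both pieces. Blood and endothelial genes summed to 258 CPM in left mesoderm, 265 in the pacemaker field, 243 in anterior mesoderm and 309.6 in posterior mesoderm, with 0 of 13 expressed genes called. Of these GATA2 came nearest the limit, at 61.7 CPM in left and 116 CPM in posterior mesoderm. Notochord markers had 0 of 3 called, and paraxial and intermediate mesoderm genes had MYF5 as 1 of 7. Among all expressed genes 1.88% were called, so 0 called in these short lists is near that share. The part of these cell types in the called genes was not tested.

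A separate group of called genes belongs to chromatin and mitochondria and was picked out after the values were seen. All 6 expressed rows of linker histone H1, the histone that binds DNA between nucleosomes, were called higher, with a median log2 ratio of 2.04. H1FX had 1144 CPM in left mesoderm, 768 in the pacemaker field, 279.9 in anterior mesoderm and 132 in posterior mesoderm, 8.64-fold (8.20 to 9.11). The other 5 rows, H1, H101, H110, H11L and H11R, lie in one histone cluster on chromosome 1 and summed to 539 CPM in left mesoderm, 503 in the pacemaker field, 330.4 in anterior mesoderm and 136 in posterior mesoderm. Their ratios ran from 3.28 to 4.61, but the genes are near copies of each other and could share reads. Of 17 expressed core histone rows 0 were called, with a median of 0.11. Over all expressed genes 1.49% were called higher and 1.88% in either direction, so 0 of 17 does not set the core histone rows apart. Most mRNAs of the histone clusters lack a poly(A) tail, and RNA was selected by that tail.

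COX8A, a small subunit of cytochrome c oxidase, had 828 CPM in left mesoderm, 644 in the pacemaker field, 433 in anterior mesoderm and 117 in posterior mesoderm, 7.07-fold (6.69 to 7.48). COA3, which helps to assemble that enzyme, had 49.2 CPM in left mesoderm, 52.2 in the pacemaker field, 40.9 in anterior mesoderm and 15.5 in posterior mesoderm, 3.17-fold. NDUFAF8, an assembly factor of respiratory complex I, was 3.16-fold higher. For these genes posterior mesoderm was the lowest library. Most members of their families were not called: 2 of 27 expressed NDUF genes were called higher with a median of -0.19, and 1 of 9 nuclear cytochrome c oxidase genes with a median of -0.30. MCTS1, which helps ribosomes restart translation, had 195 CPM in left mesoderm, 192 in the pacemaker field, 126 in anterior mesoderm and 51.6 in posterior mesoderm, 3.78-fold. CAAP1, an inhibitor of apoptosis, was 2.96-fold higher. Mitochondrial ribosomal protein genes had 2 of 49 called higher, MRPL16 and MRPS12, with a median of -0.21. For these family counts, the share called higher over all expressed genes was 1.49%.

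Genes of the cytosolic ribosome mostly lay on the other side. Of the 31 matched by symbol 30 were expressed and none was called. Since 1.88% of all expressed genes were called, 0 called in groups this small, here and below, does not set them apart. The 30 expressed genes had a median log2 ratio of -0.43. All 30 lay below 0, or 27 of 30 with total counts as the scaling. The 31 matched genes summed to 41178 CPM in left mesoderm, 47155 in the pacemaker field, 54871 in anterior mesoderm and 59176 in posterior mesoderm. A further 18 rows carry entry names of ribosomal proteins without a matched symbol, and 17 of them had log2 ratios below 0, with 0 called. The exception was RS27A, the row of ribosomal protein S27a, with 1771 CPM in left mesoderm, 2153 in the pacemaker field, 1599.7 in anterior mesoderm and 886 in posterior mesoderm, a log2 ratio of 0.999 just short of the limit. For the 31 matched genes and the genes above, the order of the libraries was thus left mesoderm, pacemaker field, anterior mesoderm and posterior mesoderm from high to low for H1FX and COX8A and from low to high for the ribosomal sum. The part of whatever sets this order in the other called genes was not tested.

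**Figure D5:**
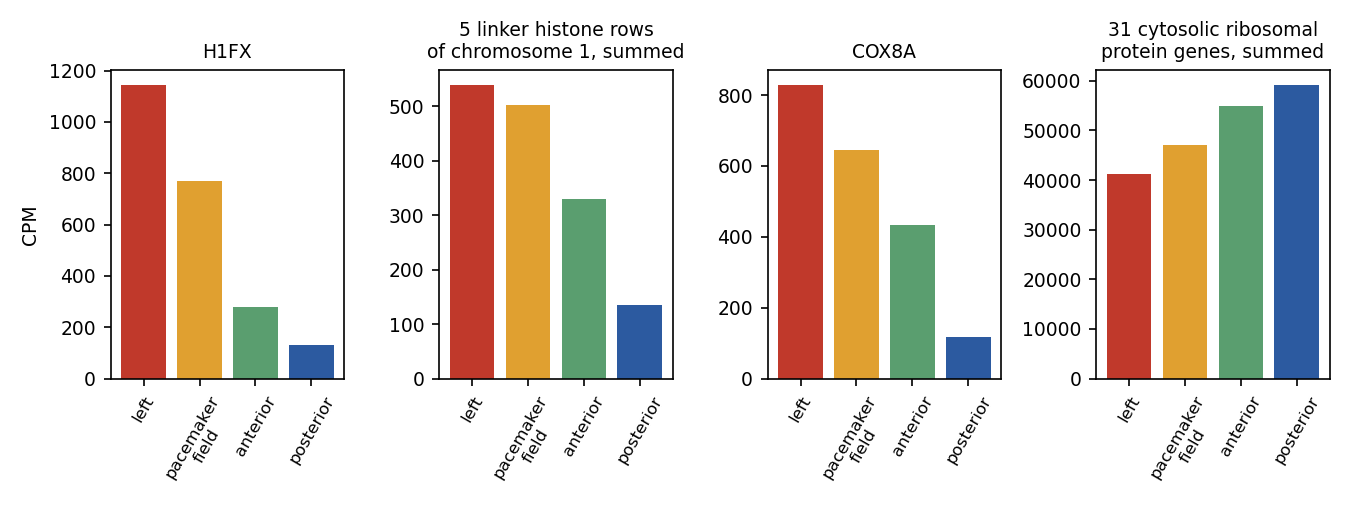
Bars give the level in CPM in left mesoderm, pacemaker field, anterior mesoderm and posterior mesoderm, on an axis from 0. H1FX, the 5 linker histone rows of chromosome 1 and COX8A are highest in left and lowest in posterior mesoderm, while the 31 ribosomal protein genes sum to 41178 CPM in left and 59176 CPM in posterior mesoderm.

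For the called genes, the other stage 8 libraries mostly lay between the compared ones. The genes were called for their ratio of left to posterior mesoderm, so the calling rule itself favours this order. Among the 136 higher genes, left mesoderm was the highest of the 4 libraries for 115 and posterior mesoderm the lowest for 112, and both other libraries lay between for 91. Posterior mesoderm stood at least 2-fold below all 3 other libraries for 20 genes, among them COX8A, H1FX, MCTS1, VWDE, COA3, CHODL and GPX3. Among the 35 lower genes, posterior mesoderm was the highest library for 34 and stood at least 2-fold above all 3 others for 13, including CDX4, WNT8A, CDH20, GLB1L, MT3 and LGALS2. Left mesoderm stood at least 2-fold below all others for 1 gene, the accession O12939, with 29.3 CPM in left mesoderm, 85.0 in the pacemaker field, 65.0 in anterior mesoderm and 89.7 in posterior mesoderm. The genes higher in left mesoderm thus include both those high in the left library and those low in the posterior one. By the same rule 49 genes differed between left mesoderm and the pacemaker field, and 176 between anterior and posterior mesoderm, with libraries shared between these comparisons.

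Some called genes were neighbours. Of 163 called genes on placed chromosomes, 26 (15.95%) had another called gene within 50 kb, whereas 5.15% of 8636 expressed genes had a called gene within that distance. In each case one was called in the same direction, but with 136 of all 171 called genes higher, agreement in direction is frequent anyway. The 26 include the 5 linker histone rows, which could share reads. Besides the histone cluster, the rows beside EIF4EBP1 and the pair of CDX4 and HMD2, these included RPH3A and WSCD2 on chromosome 15, both lower in left mesoderm. RPH3A, a synaptic vesicle protein, had 1.10 CPM in left and 5.15 CPM in posterior mesoderm, and WSCD2 had 3.82 CPM in left and 9.95 CPM in posterior mesoderm. Some of the pairs overlap, such as Q5ZK23 and an unnamed row on the opposite strand, and their reads cannot be told apart. The called genes were also shorter, with a median span of 6337.5 bases for higher and 3275 bases for lower genes, against 12940 bases over all expressed genes.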

How the data were processed

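Per the file headers, each of the 8 deposited tables holds the normalized column of its own library, which is CPM of total counts from the values. In 7 of them a count column, and in the junction's table a CPM column of posterior mesoderm, belongs to another library. Per the labels' protocols, dissected pieces were pooled, and Trizol RNA was selected by its poly(A) tail. The submitters' processing notes name Bowtie and TopHat. Versions, build, annotation, counter and strand use are not given in the sources used here. Column headers assigned the counts to libraries. For posterior mesoderm the counts were worked back from the deposited CPM: 100% of its values came out as whole reads, to within 0.01 of a read.

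Total counts were 14584736 in left and 10757964 in posterior mesoderm, and 10258697 to 17189803 over all 8 libraries, so that 1 read is 0.0579 CPM in left and 0.0858 CPM in posterior mesoderm after TMM scaling (edgeR 4.0.16, R 4.3.3), with factors of 1.18 and 1.08. Ratios of counts have exact 95% intervals (scipy 1.17.1) that cover counting error only. The calling rule was checked on simulated counts that held counting error only. Such a check cannot cover variation between embryos, dissections or library preparations. With 1 library a group there is no replicate and no test. Row names were matched to RefSeq genes (GRCg7b) by symbol, older symbol, identifier or entry name, giving 8558 of 17778 rows a symbol. Matches by older symbol or entry name needed at least 2 shared neighbouring genes. Symbol matches on placed chromosomes were dropped only where no neighbour was shared. Those on unplaced sequence, such as COX8A, MRPL16 and MRPS12, and matches by identifier did not have to pass a neighbour check. No coordinates of that assembly are printed.

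Genes were named by this rule: the 20 called in each direction with the largest log2 ratio that have a symbol and 10 CPM or more, up to 8 called members of each list (or the 2 highest where none is called), and a fixed set with every HOX gene, 93 in all. Fewer than 20 lower genes met it. Others, such as Q8QGA0, NMUR1, HMD2, HXB4 and the histone, mitochondrial and ribosomal groups, were chosen after their values were seen. The members and lists were chosen with earlier results of these data known. Promoter sequences were not analysed here, and some genes the rule names are not reported here. Alternatives were other scalings (DESeq2 1.42.0 size factors among them), pseudocounts, minimum levels and fold limits.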

Additional observations from a re-analysis of the deposited data

How the results depend on the processing

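Against 136 genes called higher and 35 lower in left than posterior mesoderm, other scalings gave 201 and 26 with total counts, 144 and 35 with TMM over the 4 mesoderm libraries, and 137 and 34 with DESeq2 size factors. Total counts moved the median log2 ratio of expressed genes to 0.11, against -0.02, and 161 of the 171 calls were kept. A pseudocount of 0.25 CPM gave 160 and 50, and one of 5 CPM gave 74 and 12. With no minimum level 159 and 58 were called, and with a minimum of 20 CPM 79 and 13. A fold limit of 1.5 gave 479 and 292, and one of 3 gave 44 and 2. By construction, a stricter minimum level or fold limit can keep only genes already called.

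No log2 ratio of the 93 named genes reversed its sign among called genes under any scaling or pseudocount, which could hardly have come out otherwise. Calls need a log2 ratio of 1 or more in size, while total counts moved the median only to 0.11. A pseudocount added to both levels cannot change a sign. Named calls were lost for 4 genes with total counts (FZD10, LGALS2, MYCN and PHLDA2), for 1 with TMM over 4 libraries (FZD10) and for 13 with a pseudocount of 5 CPM, NKX2-5 and TBX20 among them. A minimum of 20 CPM ended 15 named calls (CDX4, DLX5, NKX2-5 and WNT2B among them) and a fold limit of 3 ended 20 (CDX4, WNT8A and MYCN among them), while TBX5 passed the limit with total counts. No paired analysis was possible because each group has 1 library. Depth limits genes under 10 CPM in the higher library, which made up 23 of the higher and 15 of the lower calls. With 1 library a side, no difference between embryos, dissections or library preparations can be told apart from one between left and posterior mesoderm.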

Other observations

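In the 4 heart libraries, some genes higher in left mesoderm were near 0 and others were high. For these libraries the labels give an HH stage only for the junction. CER1 had at most 0.144 CPM there and Q8QGA0 at most 0.503 CPM. ELN ran from 5.01 CPM in left atrium to 23.9 CPM in the sinoatrial node. H1FX ran from 106 CPM in the junction to 786 CPM in left atrium, and COX8A from 357 CPM in the junction to 1578 CPM in left atrium. CDX4 was at 0 in all 4 heart libraries, and MSX2 had 83.8 CPM in the junction, against 1.80 to 10.9 CPM in the other heart libraries.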
